A study of Homo sapiens with 8 samples.

Results

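The open chromatin of untreated U2OS cells was compared between wild type (WT) clones and clones with a knockout (KO) of ZBTB48. The comparison used 4 of the 8 libraries of the series, namely all those from cells that received no interferon gamma (IFNγ). The 2 WT libraries came from clones WT_4 (replicate 1) and WT_5 (replicate 2), and the 2 ZBTB48 KO libraries from clones KO_C5 (replicate 1) and KO_D2 (replicate 2). The other 4 libraries came from the same 4 clones after 250 U/ml IFNγ for 24 h per the labels (figure legends on this assay state a longer treatment), and were used only to see whether a pattern recurred. U2OS is a human osteosarcoma cell line with an unstable genome, and each library stood for 1 clone. A difference between genotypes therefore cannot be told apart from a difference between clones, and no p-value here covers more than the spread between 2 clones a genotype.

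ZBTB48, also called TZAP, is a zinc finger protein that binds telomeric TTAGGG repeats, limits telomere length and also sits at a small set of gene promoters, where it activates transcription. Among these is promoter III of CIITA, whose product switches on the MHC class II genes. Chromatin was assayed by FAIRE-seq, in which DNA not held by nucleosomes is recovered from formaldehyde-fixed, sheared chromatin by phenol extraction and sequenced. A peak in FAIRE-seq marks open chromatin, which in most cells lies chiefly at promoters and enhancers. Fewer cells with an open site and a site that is less open in every cell cannot be told apart in such bulk libraries.

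Each library was represented by 1 list of peaks called with MACS on chromosomes 1 to 22 and X of GRCh38. Overlapping peaks of the 4 lists (1 bp or more) were joined into 37707 regions. A region with a peak in both WT libraries and in neither KO library was called WT-only, and the reverse KO-only. A region with a peak in all 4 lists was called shared.

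The sequences below are those on which the comparison turned, all on the + strand of GRCh38. The first 2 come from the strongest WT-only regions, each with the GC-box hexamer GGGCGG or its complement in capitals (near RPL38, chr17:74199741-74199891, and in an intron of ADAM11, chr17:44774905-44775055). The next 3 come from the strongest KO-only regions. They show the GGAAT pentamer of simple satellite DNA (nearest gene ENSG00000290429, chr16:46387857-46388007), the CENP-B box of alpha satellite DNA (nearest gene ENSG00000263433, chr17:26619943-26620093) and, as the exception among them, a GC-rich intron with a GC box on the other strand (UNC5B-AS1, chr10:71266442-71266592). The last is an alpha satellite site that all 4 libraries shared and that ranked higher in KO (nearest gene ENSG00000215512, chr18:16883989-16884139), again with its CENP-B box in capitals.
RPL38: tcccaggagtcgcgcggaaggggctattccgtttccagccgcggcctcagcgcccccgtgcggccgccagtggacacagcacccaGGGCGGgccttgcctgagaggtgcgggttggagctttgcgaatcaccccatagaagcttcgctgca
ADAM11: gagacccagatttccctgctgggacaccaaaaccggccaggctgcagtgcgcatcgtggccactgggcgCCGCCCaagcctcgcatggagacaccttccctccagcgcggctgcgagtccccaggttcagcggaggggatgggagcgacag
ENSG00000290429: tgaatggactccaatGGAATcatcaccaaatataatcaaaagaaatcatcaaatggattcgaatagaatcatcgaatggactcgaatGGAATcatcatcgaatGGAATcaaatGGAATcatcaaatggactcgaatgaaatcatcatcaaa
ENSG00000263433: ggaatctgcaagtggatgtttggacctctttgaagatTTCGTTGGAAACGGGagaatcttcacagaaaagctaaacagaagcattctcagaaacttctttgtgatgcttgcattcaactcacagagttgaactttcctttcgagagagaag
UNC5B-AS1: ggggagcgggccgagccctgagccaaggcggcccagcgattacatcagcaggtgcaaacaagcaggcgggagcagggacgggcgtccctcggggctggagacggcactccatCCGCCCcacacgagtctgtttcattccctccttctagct
ENSG00000215512: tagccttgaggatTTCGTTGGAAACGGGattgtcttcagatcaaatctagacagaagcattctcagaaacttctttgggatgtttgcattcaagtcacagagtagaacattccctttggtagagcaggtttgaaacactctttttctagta

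The lists differed in length before any region was compared. WT replicates 1 and 2 had 21715 and 29567 peaks, and KO replicates 1 and 2 had 19255 and 16730. Both WT lists were longer, with a mean of 25641 ± 5552 against 17992.5 ± 1785 (SD, n = 2 each, two-sided exact permutation p = 0.333, the smallest that 2 against 2 can give). The median peak width was 476 and 363 bp in WT and 384 and 385 bp in KO, so the WT clones differed more from each other than from KO. Between 58.0 and 77.1% of the peaks of a list lay within 1 kb of a transcription start site (TSS), and the highest share was that of the shortest list, KO replicate 2. The promoter share averaged 64.6% in WT and 72.2% in KO (SD 9.36 and 6.85, n = 2 each, exact permutation p = 0.667).

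Peak strength was described by 3 measures. The summit pileup is the number of fragments over the highest point of a peak, which was recovered from the fold enrichment and the −log10 p of the peak. The local background is the number of fragments that the peak caller took as its expectation at that place, given in fragments or as a multiple of the lowest such value in the library (the library background). The percentile is the rank of a peak by −log10 p within its own list, with 100 for the strongest. The lowest background, which grows with depth, was 0.656 and 1.02 fragments in WT and 0.719 and 0.626 in KO, and the median summit pileup was 29 and 26 in WT and 34 and 37 in KO. The labelled cell line was checked by promoters of the osteoblast lineage, and 4 of 12 markers, among them RUNX2, SP7 and MSX2, had a peak in all 4 libraries. Of 33 markers of other cell types 5 had one in all 4, among them that of the epithelial keratin gene KRT8. The ZBTB48 promoter had a peak of 141 and 106 fragments in WT and of 53 and 97 in KO, which does not check the deletion.

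Of the 37707 regions, 1277 (3.39%) fell into the WT-only class and 90 (0.239%) into the KO-only class. Shared regions numbered 12248, and 17680 regions were found in 1 library alone, of which 9756 belonged to WT replicate 2 and 345 to KO replicate 2. The unequal counts went with unequal list lengths. When every list was cut to its 16730 strongest peaks, the length of the shortest, the classes held 291 WT-only and 198 KO-only regions. WT-only regions kept in both settings came to 270, which is 21.1% of those from full lists and 92.8% of those from cut lists. The KO-only regions kept were 43, or 47.8% and 21.7%. Without WT replicate 1, the count of WT-only regions rose to 11269, and without KO replicate 2 that of KO-only regions rose to 2884. Such a rise follows by construction, since fewer libraries must share or lack a peak.

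WT-only and KO-only regions lay in different kinds of DNA. Of the WT-only regions 673 (52.7%, exact 95% interval 49.9 to 55.5%) were within 1 kb of a TSS, close to the 51.9% of all regions and below the 87.0% of shared regions. Of the KO-only regions 10 (11.1%, 5.46 to 19.5%) were that close. In turn 36 KO-only regions (40%, 29.8 to 50.9%) lay over 500 kb from any TSS, against 2 WT-only regions (0.157%) and 423 of all regions (1.12%). Their median GC content was 39.5%, against 65.6% in WT-only, 68.3% in shared and 62.6% in all regions. Intergenic DNA held 71.1% of KO-only and 28.0% of WT-only regions, and introns held 25.6% and 44.01%. The intervals cover counting error only.

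**Figure D1:**
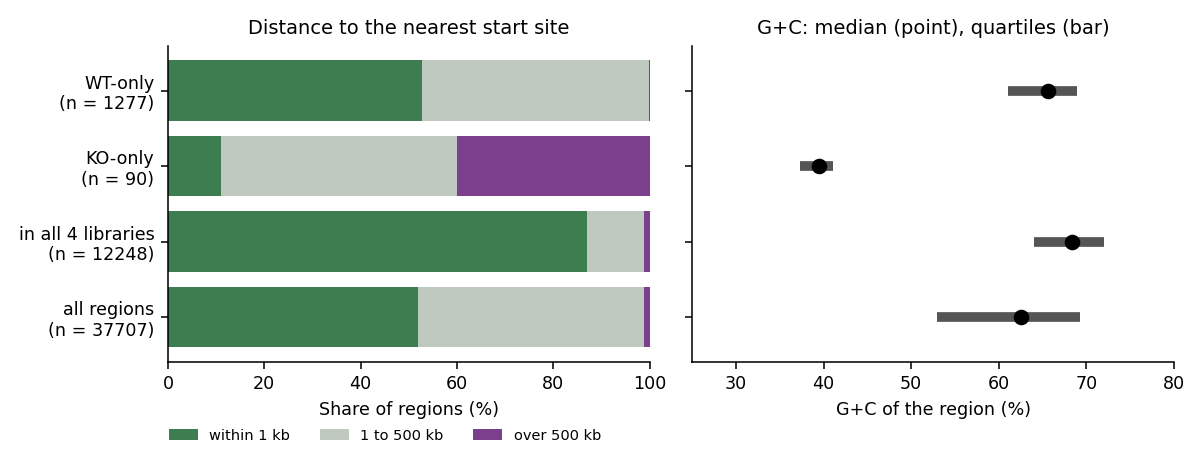
Left, share of regions (%) by distance to the nearest TSS for WT-only, KO-only, shared and all regions, and right, GC content (%) with the median as a point and quartiles as a bar. KO-only regions stand apart, with 40% over 500 kb from a TSS and a median GC content of 39.5%.

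Many KO-only regions held satellite repeats. The CENP-B box, the 15-base sequence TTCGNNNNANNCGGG that the centromere protein CENP-B binds in alpha satellite DNA, was found within 150 bp of the summit in 31 of 90 KO-only regions (34.4%, exact 95% interval 24.7 to 45.2%). It was found in 3 of 1277 WT-only regions (0.235%), in 1.02% of shared and in 1.04% of all regions. At least 8 copies of GGAAT, a limit chosen after the data were seen, were found in 18 KO-only regions (20.0%), in 0 of 1277 WT-only regions (upper bound 0.288%) and in 109 of all regions (0.289%). Either feature was present in 49 KO-only regions (54.4%), and in 26 of the 43 that stayed KO-only in cut lists (60.5%). Of the remaining 41 KO-only regions, 6 were over 500 kb from a TSS and 35 were nearer. Chromosome 18, with 2.07% of all regions, held 23.3% of the KO-only and 0.70% of the WT-only regions.

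The telomeric hexamer TTAGGG, which ZBTB48 binds, was about as frequent in WT-only regions as in all regions. Each motif was searched on both strands within 150 bp of the summit, and a TTAGGG match on the other strand can lie inside a CENP-B box. TTAGGG was found in 77 WT-only regions (6.03%, 4.79 to 7.48%), in 3.33% of KO-only, in 6.30% of shared and in 6.68% of all regions. The GC box GGGCGG, which Sp1-type factors bind, occurred in 58.0% of WT-only, 12.2% of KO-only, 80.8% of shared and 49.98% of all regions. TGANTCA, the site of the AP-1 family, had shares of 12.1% in WT-only, 21.1% in KO-only and 18.9% in all regions. A match is a description of these letters and no evidence that a factor was bound.

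WT-only peaks were weak in their lists. Their median percentile was 29.6 in WT replicate 1 and 25.7 in replicate 2, with a median summit pileup of 14 and 15 fragments. KO-only peaks were weaker still, at percentiles 11.6 and 6.69 and at 11 and 9 fragments. Peaks of shared regions had 69 and 68 fragments in WT and 60 and 50 in KO. The WT-only regions that remained in cut lists were stronger, at 19 and 27 fragments.

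The strongest regions of each kind, ranked by mean percentile among those kept in cut lists, differed in the same way. The first WT-only region (chr17:74199633-74199984) lay 3598 bp from the TSS of RPL38, the gene of a large-subunit ribosomal protein, with 59 and 44 fragments. The next covered a TSS of IL6, the gene of the cytokine interleukin 6 (chr7:22727223-22727517), with 54 and 36 fragments. One in an intron of ADAM11, which encodes a metalloprotease-like protein of neurons (chr17:44774829-44775125), had 31 and 42. Peaks at LDB1, which encodes an adaptor of LIM-domain transcription factors, had 26 and 56 fragments, and those at SPTB, the gene of erythrocyte beta spectrin, had 47 and 41. These pileups were above the median of their lists in all but 1 value, that of LDB1 in WT replicate 1.

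The strongest KO-only regions were intergenic with a GC content of 41% or less, with 1 exception. The first (chr16:46387785-46388090, nearest gene ENSG00000290429) had 203 and 86 fragments in KO replicates 1 and 2. The next (chr17:26619658-26620169, nearest gene ENSG00000263433, a processed pseudogene) had 131 and 72. In these as in 9 of the 10 regions, replicate 1 was the higher of the KO libraries. The exception was an intron of UNC5B-AS1, a long non-coding RNA antisense to a netrin receptor gene (chr10:71266343-71266741), which had 27 and 67 fragments and a GC content of 63.9%. A shared region lay close to the strongest KO-only region (chr16:46389636-46391439). Its local background was 133 and 209 fragments in WT and 13.0 and 12.2 in KO. Another of the 10 lay close to the shared region chr16:34587987-34588393, with a background of 68.7 and 112 against 5.20 and 4.56. The part of this background in the absence of a WT peak was not tested.

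The IFNγ libraries of the same clones showed how far these classes recurred. Of the 1277 WT-only regions, 534 (41.8%) had a peak in WT_IFNγ replicate 1 and 1043 (81.7%) in replicate 2. Peaks were also present in 693 (54.3%) and 557 (43.6%) in the KO_IFNγ libraries, and 815 (63.8%) had one in at least 1 of these, against 66.5% of all regions. The full pattern, both WT_IFNγ libraries and neither KO_IFNγ library, recurred in 103 regions (8.07%), against 517 (1.37%) of all 37707 regions. Its reverse was seen in 5 (0.392%), against 228 (0.605%) of all regions. Of the 90 KO-only regions, 54 (60%) had a peak in at least 1 WT_IFNγ library, against 73.5% of all regions. Of the same 90, 6 (6.67%) kept the KO-only pattern and 2 (2.22%) showed the reverse. Each class thus kept its own pattern in a larger share than all regions showed it, while most members of either class did not keep it. KO-only regions also showed the reverse pattern in a larger share than all regions (2.22% against 1.37%). All regions include the 12248 shared ones, of which 0.180% showed the WT pattern and 0.0327% the KO pattern. The classes were chosen in these same clones, so a larger share is no test of genotype. The margin over all regions was smaller for the 270 WT-only regions that remained in cut lists. Of these 8 (2.96%) kept the pattern, and 254 (94.1%) had a peak in at least 1 KO_IFNγ library. Of the 43 KO-only regions that remained, 6 (14.0%) kept theirs, and 26 (60.5%) had a peak in at least 1 WT_IFNγ library.

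**Figure D2:**
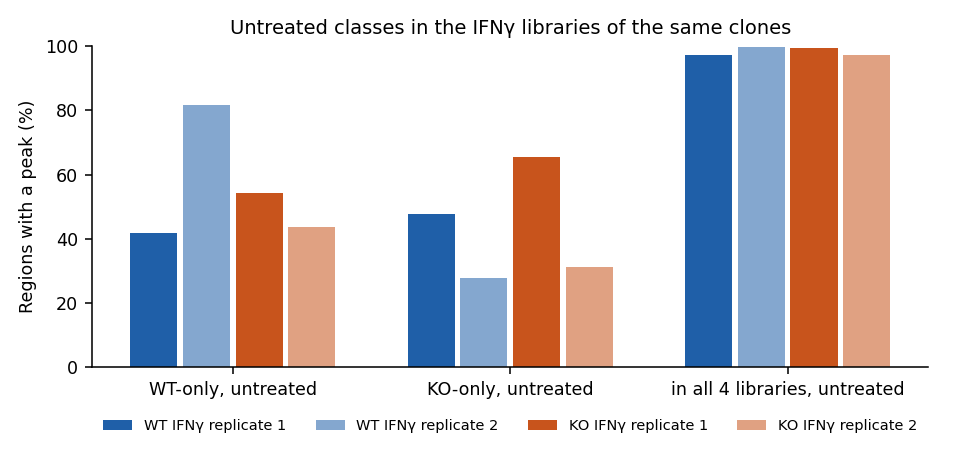
Share (%) of the WT-only, KO-only and shared regions of untreated cells with a peak in each of the 4 IFNγ libraries. WT-only regions had one in 41.8 and 81.7% of cases in WT_IFNγ and in 54.3 and 43.6% in KO_IFNγ libraries.

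Of the named WT-only regions, all 10 had a peak in both WT_IFNγ libraries and in KO_IFNγ replicate 1, and 9 had one in KO_IFNγ replicate 2. At IL6 the pileup was 37 and 53 fragments in WT_IFNγ and 67 and 43 in KO_IFNγ libraries, and near RPL38 it was 41 and 43 against 52 and 46. The percentiles near RPL38 were 62.3 and 65.6 against 56.7 and 54.6, so its order there was the reverse of that in fragments. Of the 9 regions with a peak in all 4 IFNγ libraries, 3 had both WT_IFNγ percentiles above both KO_IFNγ percentiles and 0 the reverse, while in fragments 0 were higher in both WT_IFNγ and 3 in both KO_IFNγ libraries. Among KO-only regions, the strongest one on chromosome 16 had 171 and 175 fragments in WT_IFNγ against 202 and 70 in KO_IFNγ libraries. The UNC5B-AS1 intron stayed highest in KO, with 33 and 13 fragments in WT_IFNγ and 74 and 126 in KO_IFNγ libraries.

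**Figure D3:**
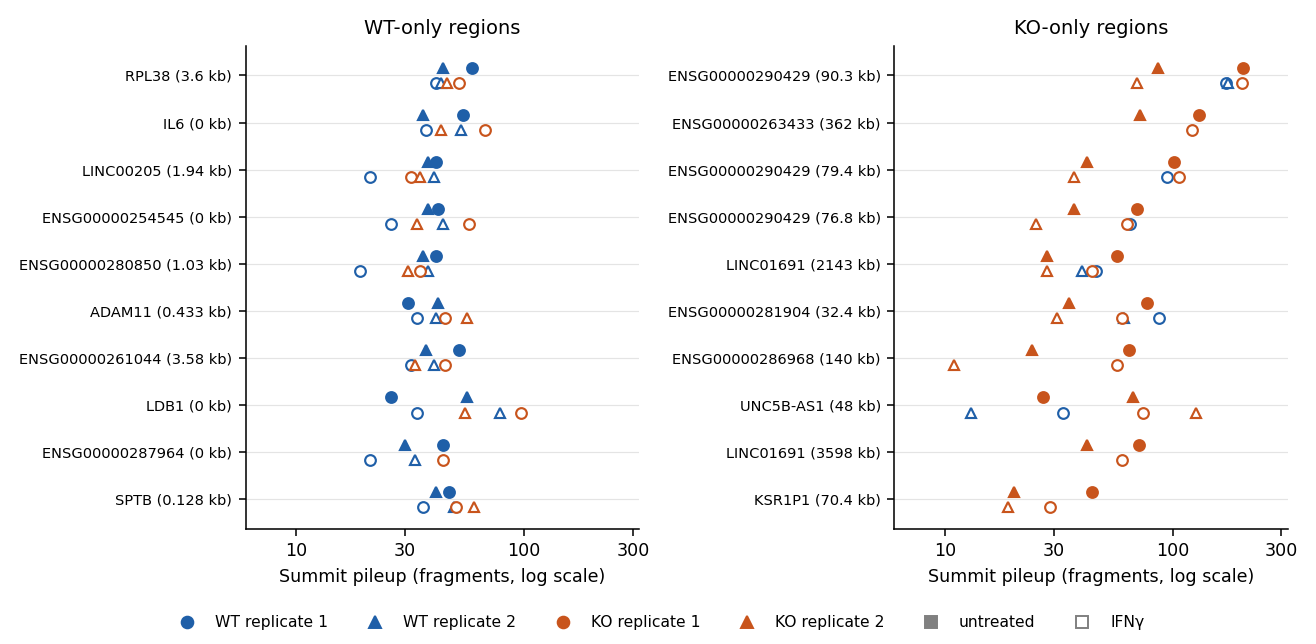
Summit pileup (fragments, log scale) of the 10 strongest WT-only and the 10 strongest KO-only regions in each library, named by the nearest gene with its distance in kb. Filled symbols are untreated and open symbols IFNγ libraries, and a missing symbol means no peak. IL6 has 54 and 36 fragments in untreated WT and 67 and 43 in the KO_IFNγ libraries.

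The strength of the 12248 shared regions was compared next. Both WT percentiles exceeded both KO percentiles in 4909 regions (40.1%), and both KO percentiles exceeded both WT in 237 (1.94%). The median percentile was 71.7 and 78.4 in WT and 67.8 and 62.7 in KO, a median difference of 8.05 points. In limma's test of the percentiles (as normal scores, two-sided, Benjamini-Hochberg over 12248 regions) 0 regions (0%) were higher in WT and 0 (0%) in KO, with a smallest adjusted p of 0.727. At an unadjusted p under 0.05 there were 617 and 17. The same fit on summit pileup, on fold enrichment and on ranks among shared regions alone also called 0. On that last scale, which does not depend on list length, the unadjusted counts turned to 56 higher in WT and 101 higher in KO.

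In summit pileup the direction depended on the scaling. Relative to its median over shared regions in each library (69, 68, 60 and 50 fragments), which centres the shared regions by construction, the pileup was higher in both WT libraries in 869 shared regions (7.095%) and in both KO libraries in 1593 (13.0%). Relative to the median of the whole list (29, 26, 34 and 37 fragments) these counts were 7095 (57.9%) and 27 (0.220%). Relative to the library background they were 633 (5.17%) and 495 (4.04%), and in unscaled fragments 3087 (25.2%) and 172 (1.40%). Local background moved with genotype too. Its median over shared regions was 1.69 and 1.73 times the library background in WT and 2.96 and 2.999 times in KO. Within 1 kb of a TSS it was 1.69 and 1.73 against 3.01 and 3.05, and on this scale both KO libraries exceeded both WT libraries at 9493 of 10650 such regions, while the reverse held at 481. In fragments these counts were 6261 and 450. Over 500 kb from a TSS it was 1.00 in all 4 libraries. A higher background lowers the fold enrichment and −log10 p that a given pileup earns, and its part in the WT-only, KO-only and percentile counts was not tested.

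The local background also followed genotype from region to region. Between the 2 untreated libraries of a genotype the ratio of local backgrounds was within 5% of its median in 53.6 to 57.3% of 11551 regions found in all 8 lists. Between a WT and a KO library it was in 10.1 to 11.6%.

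**Figure D4:**
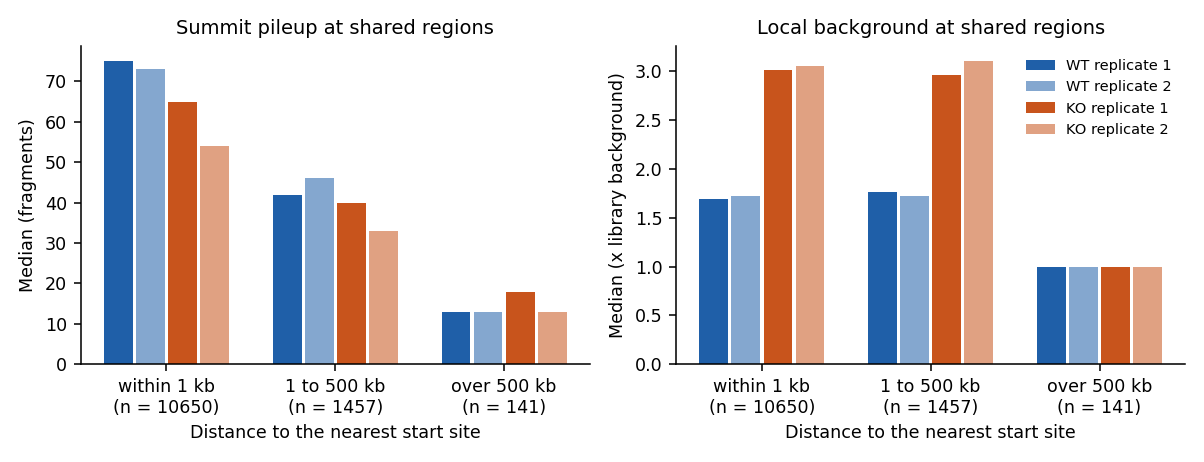
Median summit pileup (fragments, left) and median local background (multiple of the library background, right) of shared regions by distance to the nearest TSS, 1 bar per library. Within 1 kb the background is 1.69 and 1.73 in WT and 3.01 and 3.05 in KO, while the pileups are 75 and 73 against 65 and 54.

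Of the shared regions with the smallest p in each direction, those towards KO again lay in another kind of DNA. All of them, in either direction, had an adjusted p of 0.727 in limma's test. Towards WT, 9 of 10 were at a TSS, near the 82.9% of all shared regions that covered one. The promoter of NGRN, which encodes neugrin, a mitochondrial RNA-processing protein, had percentiles of 57.9 and 69.6 in WT and 17.2 and 9.43 in KO, with 38 and 45 against 22 and 20 fragments. That of SH3GL2, the gene of the endocytic protein endophilin A1, had 16 and 17 fragments in WT and 9 and 7 in KO. That of RPS25, which encodes a small-subunit ribosomal protein, had 12 and 40 in WT and 12 and 15 in KO, so its pileups overlapped although its percentiles did not.

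Towards KO, 9 of 10 regions were intergenic with a GC content of 41% or less. Of all shared regions 41.9% were intergenic, and their median GC content was 68.3%. The largest pileup belonged to a region on chromosome 16 (nearest gene ENSG00000290429), with 1123 and 1024 fragments in WT and 1766 and 731 in KO. Its local background was 133 and 209 fragments in WT and 13.0 and 12.2 in KO, so the fragments overlapped between genotypes and the background did not. The same held near ENSG00000286968, with 445 and 437 against 705 and 307 fragments and a background of 68.7 and 112 against 5.20 and 4.56. The alpha satellite site on chromosome 18 printed above (nearest gene ENSG00000215512) differed in pileup as well, with 5 and 6 fragments in WT and 10 and 13 in KO, the WT values being the lowest of any peak in their lists. The GC-rich exception lay 4475 bp from the TSS of DNAJB12, the gene of a chaperone of the endoplasmic reticulum, with 90 and 72 fragments in WT and 190 and 135 in KO, and with 53 and 78 against 185 and 137 after IFNγ.

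Satellite sites were examined as a class because they recurred among the regions found or ranked higher in KO. The class was thus chosen from these same lists, and its members include regions ranked higher in KO that prompted it. Its counts are therefore a description and no test. The 125 shared regions with a CENP-B box had median pileups of 15 and 15 fragments in WT and 20 and 15 in KO, and the median background was at the library level in each library, though all 4 were at that level in 88 of the 125. Of the 125, 23 ranked higher in both KO libraries and 11 in both WT libraries. Over all 12248 shared regions these counts were 237 (1.94%) and 4909 (40.1%). The 21 shared regions rich in GGAAT had 82 and 75 fragments in WT and 105 and 61 in KO. Their background was 1.96 and 1.94 times the library level in WT and 1.45 and 1.46 times in KO. Of the 21, 6 ranked higher in both KO libraries and 4 in both WT libraries. The share of peaks over 500 kb from a TSS was 1.11 and 0.707% in WT and 1.87 and 1.64% in KO, a mean of 0.911% ± 0.288 against 1.75% ± 0.164 (SD, n = 2 each, exact permutation p = 0.333). On chromosome 18 such peaks numbered 98 and 64 in WT and 141 and 116 in KO. After IFNγ they numbered 123 and 90 in WT and 134 and 29 in KO, and the genotypes overlapped.

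These sites lay between positions 15841138 and 20450723 of chromosome 18, where 137 of 163 regions held a CENP-B box. WT-only regions among them numbered 0 and KO-only regions 19. Without chromosome 18 the KO-only count was 69 in place of 90.

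Large chromosome segments were compared because U2OS clones may differ in chromosome content. The share of peaks in 298 bins of 10 Mb was tested with limma, and 0 bins were higher in WT and 0 in KO (Benjamini-Hochberg over 298 bins, smallest adjusted p = 0.471), with 5 and 9 at an unadjusted p under 0.05. Both KO shares lay above both WT shares in 74 bins (24.8%) and below them in 30 (10.1%). In the first 10 Mb of chromosome 5 the share was 61.7 and 43.97 per 10000 peaks in WT and 22.9 and 26.9 in KO, a log2 difference of 1.04 (SE 0.227, limma adjusted p = 0.471). Local background there was 1.00 and 1.08 times the library level in WT and 3.45 and 3.88 times in KO, and its part was not tested. The bin from 120 to 130 Mb of chromosome 1, which spans the centromere, had 10.1 and 8.79 per 10000 in WT and 20.3 and 17.9 in KO.

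The loci by which the study follows ZBTB48 were then examined. CIITA promoters I, III and IV had no peak in any untreated library, so these lists hold no measured difference there. By quantitative PCR of FAIRE DNA, the study reports higher accessibility of promoter III and MTFP1 in untreated WT than KO clones. It reports no effect at promoters I and IV or at a site 6 to 7 kb upstream. After IFNγ, promoter III had a peak in WT replicate 2 alone, with 17 fragments, and promoter IV in WT replicate 2 and both KO libraries. In the untreated lists, the site 6 to 7 kb upstream had a peak in WT replicate 2 alone, with 17 fragments. MTFP1, which encodes a mitochondrial fission protein, likewise had a promoter peak in WT replicate 2 alone, with 24 fragments at percentile 35.4, and so had VWA5A with 12 fragments. After IFNγ, MTFP1 had a peak in both WT libraries, with 19 and 37 fragments, and in neither KO library, while VWA5A had none. As these sites were open in 1 of 2 untreated WT lists, the longest of the 4, they were not WT-only.

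The SNX15 promoter differed most among these loci. SNX15 encodes a sorting nexin of endosomes, and its promoter (chr11:65027263-65027931) had 80 and 64 fragments in WT and 27 and 20 in KO. The libraries of the genotypes did not overlap. Relative to the medians over shared regions the pileup was 2.47-fold higher in WT, at rank 1 of the 12248 shared regions. The other scalings gave 2.65- to 3.91-fold and ranks 1 to 2. The study calls SNX15 a ZBTB48 target by binding and by loss of its RNA in KO clones. It also reports the FAIRE-seq result at SNX15, so this rank is no independent evidence. Local background was 1.79 and 2.21 fragments in WT and 2.43 and 2.13 in KO, or 2.74 and 2.16 times the library background in WT and at least 3.38 times in each KO library, so on that scale KO was the higher without overlap. The log2 difference in pileup was 1.34 (SE 0.315, limma unadjusted p = 0.00601, adjusted p = 1), and that of the percentile was 1.21 normal-score units (SE 0.3004, limma adjusted p = 0.727). In the IFNγ libraries the same clones gave 56 and 79 fragments against 26 and 36, a 2.76-fold difference on the first scale at rank 5 of 11603 regions with a peak in all 8 lists.

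**Figure D5:**
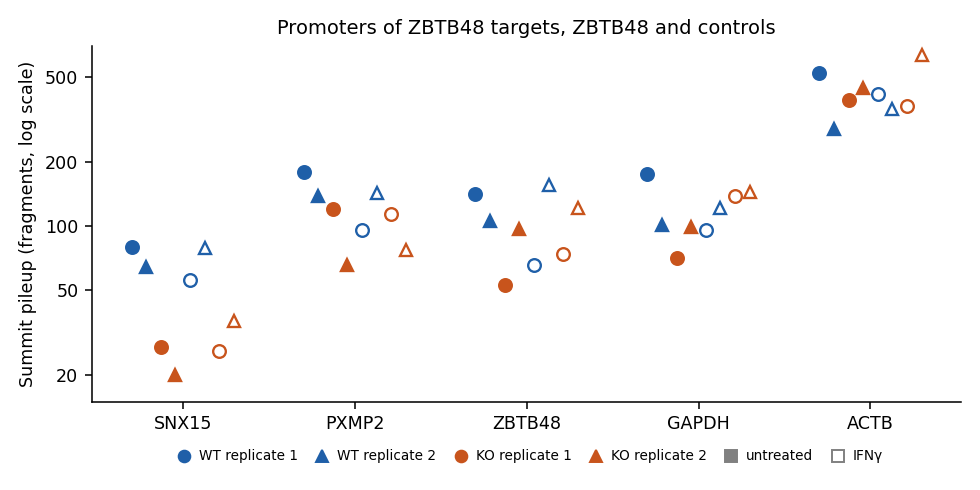
Summit pileup (fragments, log scale) at the promoters of SNX15, PXMP2, ZBTB48, GAPDH and ACTB in the 4 untreated (filled) and 4 IFNγ (open) libraries. At SNX15 the WT libraries reach 80 and 64 fragments and the KO libraries 27 and 20, while at ACTB the genotypes overlap.

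PXMP2, the gene of a peroxisomal membrane channel, had 180 and 138 fragments in WT and 120 and 66 in KO, also without overlap. Of the control promoters, ACTB, the gene of beta-actin, had 523 and 284 fragments in WT and 391 and 445 in KO, which overlapped. GAPDH, the gene of a glycolytic enzyme, had 175 and 101 against 71 and 99, so this control also had both WT libraries above both KO libraries.

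Besides SNX15, 13 shared regions had a pileup at least 2-fold higher in WT without overlap of the libraries, relative to the medians over shared regions, and 39 had one at least 2-fold higher in KO. Relative to the medians of whole lists these counts, SNX15 included, were 1183 and 0. The examples here were chosen after their values were seen. HSD17B12, the gene of a reductase in fatty acid elongation, had 81 and 106 fragments in WT and 28 and 35 in KO, but 37 and 130 against 124 and 49 after IFNγ. FZD2, the gene of a Wnt receptor, had 35 and 57 against 21 and 16, and EPS15, the gene of an endocytic adaptor, had 54 and 33 against 20 and 15. Of the 14 regions higher in WT, 13 lay within 1 kb of a TSS. Of the 39 higher in KO, 12 did, and 17 lay over 500 kb from a TSS, 13 of these on chromosome 18. Of the 13 regions higher in WT that had a peak in all 8 lists, 2 were higher in both WT_IFNγ libraries (15.4%), against 17.7% of all shared regions in all 8 lists. Of the 28 higher in KO, 5 were higher in both KO_IFNγ libraries (17.9%, against 11.03%).

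Promoters of protein-coding genes, taken as 500 bp either side of a TSS, were examined to name genes. Of 19970 protein-coding genes, 13952 had a promoter peak in some library and 10499 in all 4, and the lists of genes below stand beside these counts. By peaks in this window alone, WT-only promoters numbered 354 (2.54% of the 13952) and KO-only promoters 4 (0.0287%). A WT-only promoter need not lie in a WT-only region, since a joined region can hold a KO peak beyond the window. GALNT7 was such a promoter, and its region was shared, with 9 and 8 fragments in KO. C10orf95 had 64 and 49 fragments in WT, and no peak in the window in any of the other 6 libraries. FOXA3, which encodes a forkhead factor of liver and gut, had no KO peak in the window. It had 16 and 191 fragments in untreated WT and 12 and 230 in WT after IFNγ. The WT clones thus differed widely from each other. ZNF264, a zinc finger gene, had 27 and 38 fragments in WT but 41 and 48 in the KO_IFNγ libraries. The KO-only promoters were weak, with 8 to 15 fragments, and belonged to the potassium channel subunit gene KCNS2, the phosphatase regulator gene PHACTR1, and NIPAL4 and ENSG00000285868, which share a peak.

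Among the 10499 promoters with a peak in all 4 libraries, both WT percentiles were above both KO in 4088 (38.9%) and below in 180 (1.71%), with a median difference of 7.12 points. Each list of genes is given beside these shares.

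Genes of telomere maintenance were all but 1 of 20 open in some library, and 15 were open in all 4. Of these 5 ranked higher in WT (33.3%) and 1 in KO. TERF1, which encodes a shelterin protein on telomeric duplex DNA, had 146 and 178 fragments in WT and 111 and 104 in KO. TERF2, the gene of its shelterin relative, was the 1 that ranked higher in KO, although its fragments overlapped at 102 and 110 against 120 and 93. POT1, which encodes the single-strand binding protein of shelterin, overlapped too, at 42 and 97 against 29 and 68.

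Mitochondrial dynamics genes were open in some library in 14 of 14 cases. Of the 12 open in all 4, 5 ranked higher in WT (41.7%) and 0 in KO. MFN1, the gene of a mitochondrial fusion GTPase, had 19 and 53 fragments against 18 and 25, while OPA1, which acts on the inner membrane, had 47 and 104 against 33 and 78.

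MHC class II genes were mostly closed, since 3 of 13 had a promoter peak in some library and HLA-DMA, which encodes a peptide-loading subunit, was alone in having one in all 4. It had 78 and 63 fragments in WT and 76 and 49 in KO. Of the 21 genes of MHC class I and the interferon pathway, all had a peak in some library, 12 in all 4, and 4 of these ranked higher in WT (33.3%). IRF1, the gene of a transcription factor of the interferon response, had 281 and 185 against 255 and 192, and its clones overlapped.

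The ZBTB family, to which ZBTB48 belongs, was open in all 4 libraries in 35 of 40 cases, with 16 higher in WT (45.7%) and 1 in KO. That 1 was ZBTB14, with 184 and 151 fragments in WT and 296 and 195 in KO. Zinc finger genes on chromosome 19 had 107 promoters open in all 4, of which 51 ranked higher in WT (47.7%) and 0 in KO. Another 7 of 194 were WT-only (3.61%), namely ZNF20, ZNF264, ZNF442, ZNF610, ZNF671, ZNF701 and ZNF776, and each of these had a peak in at least 1 KO_IFNγ library. Of 30 replication histone genes with a peak, 3 were WT-only. These were H3C1, with 17 and 24 fragments, and H2AC7 and H2BC7, which share a peak of 14 and 16.

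Among the remaining lists, the share ranked higher in WT ran from 17.6% for genes of the p53 and RB pathways to 2 of 4 osteoblast genes. It was 35.7% of 56 genes of cytosolic ribosomal proteins, 20.8% of 24 proteasome genes, 38.5% of 13 AP-1 genes and 41.7% of 12 collagen genes. The 1 gene of these lists that ranked higher in KO was the proteasome gene PSMA7, with 148 and 132 fragments in WT and 234 and 115 in KO. RUNX2, the master regulator of osteoblasts, had 20 and 22 fragments in WT and 15 and 12 in KO. Single WT-only promoters were those of COL11A1, a fibrillar collagen gene, with 12 and 17 fragments, and of KDR, the gene of a VEGF receptor of endothelium, with 29 and 19.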

How the data were processed

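FAIRE-seq peak lists of 4 untreated U2OS libraries were used, with 4 IFNγ libraries for recurrence. The authors sequenced 150 bp read pairs, trimmed adapters with trimmomatic, aligned to GRCh38 with Bowtie2 2.2.5, kept well-mapped reads with SAMtools 1.14, and called peaks on each library with MACS2 2.2.7.1 in paired-end mode. Replicates were not pooled. The deposited columns hold fold enrichment (a ratio of summit pileup to local background), −log10 p, −log10 q and a score, which was not used. Whether input DNA was the control is not given in the sources used here. Read counts were not analysed here. The study gives a range of reads over its FAIRE-seq samples but no value per library. The depth of each library is therefore seen only through the backgrounds given.

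Fold enrichment and −log10 p together fix the summit pileup and the local background of a peak under a Poisson model, and both were computed. A whole number of fragments reproduced every peak's −log10 p within a relative 1e-05. TSSs came from GENCODE 44, and sequences from the GRCh38 reference. Percentiles were turned into normal scores and tested with limma 3.58.1 in R 4.3.3, without covariates, with the 4 untreated libraries and an adjusted p threshold of 0.05. Bins with at least 50 peaks were tested as log2 of the share per 10000 peaks plus 1. Single values used exact permutation tests, and shares exact binomial intervals. Named regions were the 10 of each class with the highest mean percentile, those with the smallest p in each direction, members of the gene lists in 1 class, and the study's loci. Regions were named by the closest annotated TSS. Members and gene lists were chosen with earlier results of these data known. Alternatives were other thresholds, list lengths, overlap rules, scales and bins, a block for the replicate number, and fits that left out each replicate. The limma script was tested on simulated data. Some items are not reported here.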

Additional observations from a re-analysis of the deposited data

Results flagged for a closer look

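Of the named regions, 4 had pileups, relative to the median over shared regions, that did not overlap between genotypes and pointed one way in untreated cells and the other way after IFNγ. The difference between treatments was not tested. The FZD2 promoter was 2.01-fold higher in WT untreated and 0.782-fold after IFNγ, as the ratio of WT to KO. Its fragments after IFNγ were 21 and 46 in WT and 63 and 43 in KO, which overlapped before scaling. At the long non-coding gene ENSG00000261889 the ratio was 1.53 untreated, with 24 and 16 fragments in WT and 12 and 9 in KO, and 0.663 after IFNγ, with 8 and 18 against 22 and 25. At the intergenic region on chromosome 17 nearest to ENSG00000263433 it was 0.719 untreated and 2.11 after IFNγ, with 608 and 473 against 754 and 468 fragments and then 819 and 642 against 652 and 357. At a site on chromosome 13, 1611577 bp from ENSG00000279924, it was 0.436 untreated, with 18 and 19 against 36 and 32 fragments, and 2.25 after IFNγ, with 35 and 37 against 26 and 18.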

How the results depend on the processing

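Summit pileup scaled by the whole list's median was higher in both WT libraries in 7095 shared regions and in both KO libraries in 27, the KO count was 495 when scaled by the library background, and unscaled fragments gave 3087 and 172, alternatives chosen after the data were seen. The 2 clones per genotype limit all tests, the depth limits peaks of few fragments, and no call from the exact tests can pass the threshold. Lists of equal length gave 291 WT-only and 198 KO-only regions (268 and 171 when cut by summit pileup). They gave promoter shares of 47.8% for WT-only and 21.2% for KO-only regions and median GC contents of 64.0 and 40.7%. The promoter share of peaks, WT minus KO, reversed there to 1.47 percentage points. Summit windows of 150 bp gave 179 KO-only regions. Other thresholds, overlaps, the removal of chromosome 18 and the joining of all 8 lists kept WT-only regions at 1143 to 1279 and KO-only regions at 69 to 103. With 1 replicate left out, WT-only regions ranged from 2362 to 11269 and KO-only regions from 279 to 2884, and fewer libraries must share or lack a peak by construction. Over these omissions the promoter share ranged from 31.7 to 57.1% for WT-only and from 11.3 to 39.97% for KO-only regions, and the median GC content from 56.8 to 68.6% and from 40.5 to 53.9%. The KO-only promoter share reached 38.4% without WT replicate 1 and 39.97% without WT replicate 2. The difference in the number of peaks ranged from 3722.5 to 11574.5, that in the promoter share from -14.2 to -0.963 points, and that in median width from -21.5 to 91.5 bp, the reversal to -21.5 coming without WT replicate 1. Regions ranked higher in limma's test ranged from 0 to 7 for WT and from 0 to 1 for KO, the 7 and 1 without WT replicate 1. With the replicate number as a block, 61 regions ranked higher in WT and 8 in KO, and 0 bins in either. WT and KO clones share only a number, so the block rests on no pairing in the design, and the replicate differences of the genotypes correlated at 0.347 over the 12248 regions, which are not independent. Bins gave 0 calls under all alternatives run. A cut to equal length leaves no difference in the number of peaks by construction. The cause of the other changes was not tested.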
